A study of Drosophila melanogaster with 2 samples.

Results

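Lola (longitudinals lacking) occupied 606 intergenic positions that lay near genes but outside their promoters. They came from the binding peaks mapped by chromatin immunoprecipitation and sequencing (ChIP-seq) that passed a threshold on the irreproducible discovery rate (IDR). The list held these 606 and 5548 other summits, so they made up 9.85% of it (Wilson 95% interval 9.13% to 10.6%). A summit, the single base the authors gave as the top of each peak, was kept when it lay outside every annotated gene of any type and more than 500 bp but at most 5000 bp from the nearest transcription start site (TSS) of a protein-coding gene. These are called near intergenic summits here. The others comprised 2488 promoter summits (within 500 bp of a coding TSS), 2402 summits within a gene and 658 far intergenic summits (over 5000 bp from a coding TSS). The samples were whole embryos of mixed sex, aged 0 to 12 h, from a stable transgenic line that makes the J isoform of Lola with green fluorescent protein (GFP) at its C terminus. An antibody against GFP served for the precipitation, while the label for the antibody lists lola. Chromatin was sonicated to 200 to 800 bp. Both samples, numbered biological replicates 1 and 3, belonged to 1 group, and no other genotype, stage or mock precipitation was compared. All cell types of the embryo were mixed, and no source used here states how much tagged protein there was relative to the native isoform.

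Lola belongs to a family of transcription factors that carry an N-terminal BTB domain, through which they pair. Its many splice forms share that domain and end in different zinc fingers, so isoforms can bind different DNA, and embryos that lack the gene misroute their longitudinal axons. Intergenic DNA a short way upstream of a fly gene often holds enhancers, which transcription factors bind to control expression in particular cells.

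Near intergenic summits stood on A/T-rich DNA. The windows below reach 50 bp to each side of 5 of the strongest near intergenic summits and span A/T contents from 55.4% to 81.2%, with uninterrupted runs of at least 8 A or T bases in capitals. Sequences are the plus strand of dm6, from the NCBI copy of the Release 6 genome. They lie at chr2L:2202355-2202455 (CG31668), chr3R:11780263-11780363 (l(3)neo38), chrX:2124077-2124177 (ph-d), chr3R:26017935-26018035 (E(spl)m2-BFM) and chr3L:9855869-9855969 (RasGAP1), and each is named for the gene with the nearest coding TSS.
CG31668: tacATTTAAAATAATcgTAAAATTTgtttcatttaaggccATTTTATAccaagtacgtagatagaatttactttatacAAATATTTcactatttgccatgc
l(3)neo38: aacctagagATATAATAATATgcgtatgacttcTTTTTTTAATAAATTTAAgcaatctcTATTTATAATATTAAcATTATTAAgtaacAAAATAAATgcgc
ph-d: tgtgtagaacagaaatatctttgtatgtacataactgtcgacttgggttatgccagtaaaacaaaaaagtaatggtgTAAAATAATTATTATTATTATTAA
E(spl)m2-BFM: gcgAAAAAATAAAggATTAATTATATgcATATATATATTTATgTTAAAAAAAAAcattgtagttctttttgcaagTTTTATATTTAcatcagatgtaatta
RasGAP1: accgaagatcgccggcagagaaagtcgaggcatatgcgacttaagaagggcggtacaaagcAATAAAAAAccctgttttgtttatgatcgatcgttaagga

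A second feature was a 7-base word, ACACTGA, that stood at the edges of this A/T-rich core and mostly pointed at the summit. It was chosen after its values were seen. In the windows of 251 bp below, each centred on a summit, capitals mark every ACACTGA and its reverse complement TCAGTGT. Such a window held a match at 76 of the 606 members (12.5%), so most members lacked one. These are 4 of the strongest near intergenic summits that held a match within the window. They lie at chr3L:10769681-10769931 (CG43245), chr2L:3832395-3832645 (slp2), chr2L:4222995-4223245 (ft) and chr3R:21862175-21862425 (lsn), on the plus strand of dm6.
CG43245: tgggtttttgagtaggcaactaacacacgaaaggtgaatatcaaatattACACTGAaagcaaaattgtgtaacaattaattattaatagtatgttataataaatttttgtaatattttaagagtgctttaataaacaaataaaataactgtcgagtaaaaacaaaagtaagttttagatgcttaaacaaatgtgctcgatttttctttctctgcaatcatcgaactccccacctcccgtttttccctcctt
slp2: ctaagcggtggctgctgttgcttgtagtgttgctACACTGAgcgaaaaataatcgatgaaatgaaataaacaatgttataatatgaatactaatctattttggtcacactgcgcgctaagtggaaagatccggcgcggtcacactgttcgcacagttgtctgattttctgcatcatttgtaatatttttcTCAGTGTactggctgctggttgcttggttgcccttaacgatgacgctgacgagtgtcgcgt
ft: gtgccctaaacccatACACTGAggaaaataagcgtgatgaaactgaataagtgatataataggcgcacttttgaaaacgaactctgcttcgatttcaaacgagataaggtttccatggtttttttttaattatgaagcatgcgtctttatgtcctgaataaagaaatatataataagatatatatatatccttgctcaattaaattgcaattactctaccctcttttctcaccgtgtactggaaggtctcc
lsn: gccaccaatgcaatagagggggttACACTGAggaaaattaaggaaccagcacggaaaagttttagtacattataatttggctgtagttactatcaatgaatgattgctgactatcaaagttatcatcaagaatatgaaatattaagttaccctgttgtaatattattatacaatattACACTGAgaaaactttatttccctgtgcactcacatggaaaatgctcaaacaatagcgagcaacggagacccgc
At slp2 the matches lay 88 bp to the left of the summit as ACACTGA and 68 bp to its right as TCAGTGT, so the 3' end of both faced the summit. At lsn the left match faced the summit and the right one, 55 bp away, faced away from it.

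The near intergenic class took a slightly smaller share in replicate 1 than in replicate 3. In each replicate's own list, as many of the strongest peaks were taken as the IDR-thresholded list holds. Of these, 545 (8.86%) met the rule in replicate 1 and 637 (10.4%) in replicate 3. DNA that met the rule covered 12.2 Mb, or 9.15% of the 6 chromosome arms, so the class held 49.5 summits per Mb, against 44.5 in replicate 1 and 52.0 in replicate 3. The share of near intergenic summits changed little with signal. It was 8.80% among the first 1000 peaks of the pooled list and 10.2% among the last 10000 of its 30000. With 1 group and 2 replicates, no test over samples was possible for any comparison here. Each value is given instead with the lists of both replicates, and intervals cover counting error only, since neighbouring summits are not independent samples.

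Most near intergenic summits lay upstream of the nearest coding TSS. Of the 606, 470 (77.6%, interval 74.1% to 80.7%) were upstream and 136 were downstream, on the side toward which that gene is transcribed. The upstream share was 76.9% in replicate 1 and 76.0% in replicate 3, while 69.3% of the DNA that met the rule lay upstream. Upstream DNA thus held 55.4 summits per Mb and downstream DNA 36.2. The same order was seen in replicate 1, with 49.4 and 33.5 per Mb, and in replicate 3, with 57.0 and 40.7 per Mb. The upstream share was greatest among the first 1000 peaks, which held 88 of the members. In the pooled list it was 81.8% of the near intergenic summits there, 76.8% in the rest of the IDR-thresholded list and 71.1% in the peaks that followed, up to rank 12000. Both replicates ran the same way over these ranks, from 81.6% to 70.8% in replicate 1 and from 81.2% to 72.7% in replicate 3. Beyond rank 12000 the pooled share was 68.7% up to rank 20000 and 71.7% from there to rank 30000. No interval was computed for these shares by rank, and the first rests on 88 summits. Within the IDR-thresholded list, the 295 members ranked above its median had an upstream share of 77.6%, as all 606 did.

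The difference between the sides was widest close to the TSS. Between 500 and 1000 bp upstream there were 103 summits, or 58.7 per Mb, and between 1000 and 2000 bp there were 153, or 63.8 per Mb. On the downstream side the same distances held 5 and 30 summits, at 20.1 and 34.7 per Mb. The rule leaves out all DNA within genes, so downstream DNA here lies past the 3' end of the gene. Close to the TSS only short genes leave such DNA. At 500 to 1000 bp it covered 0.248 Mb, against 1.76 Mb upstream. These values therefore say nothing about transcribed DNA just downstream of a TSS. At 3000 to 4000 bp the sides did not differ beyond the spread of the replicates. The density was 45.5 per Mb upstream and 46.8 downstream, with 38.4 and 39.0 in replicate 1 and 47.6 and 49.0 in replicate 3. At 4000 to 5000 bp it was 51.7 and 39.5 per Mb, with 43.1 and 40.8 in replicate 1 and 50.8 and 39.5 in replicate 3. The median distance to the TSS was 2084 bp (quartiles 1262 to 3402 bp), and the nearest edge of any gene, coding or not, was a median of 1136 bp away. At the bounds of the rule, the members just inside lay 501 bp upstream of CG5535 and 4981 bp downstream of the TSS of Gr93b, and the summits just outside lay 498 bp upstream of ft and 5012 bp downstream of CG9300.

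**Figure D1:**
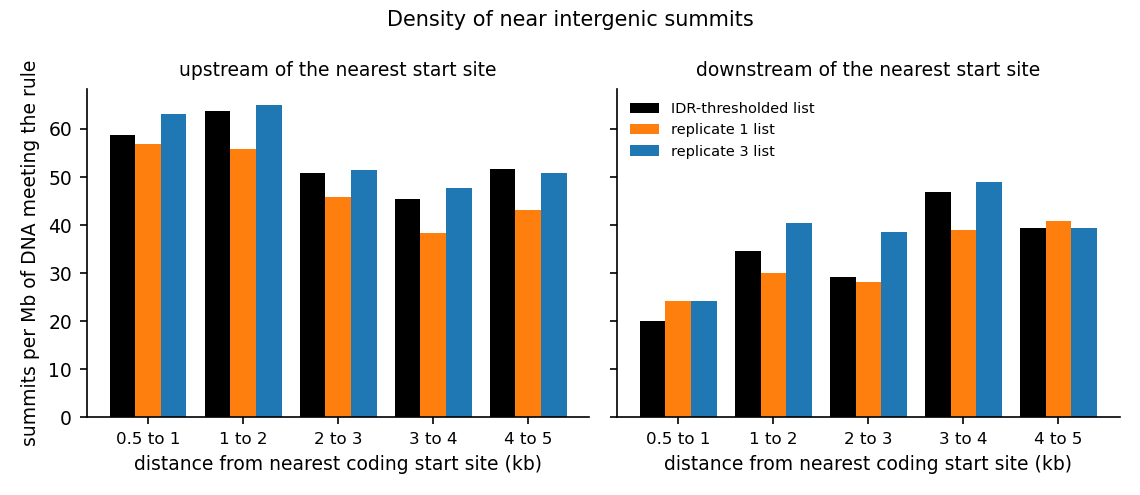
Near intergenic summits per Mb of DNA that met the rule (y axis), by distance from the nearest coding TSS in kb (x axis), upstream (left) and downstream (right), in the IDR-thresholded list and in the equally many strongest peaks of each replicate. Between 1 and 2 kb upstream the values are 63.8, 55.9 and 65.1 per Mb, and between 3 and 4 kb the sides are at about the same height.

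Divergent gaps, where the flanking genes are transcribed away from each other so that both sides are upstream, were the densest. They held 245 summits (40.4%) in 31.4% of the DNA that met the rule, or 63.7 per Mb. Tandem gaps, between genes transcribed in the same direction, held 283 (46.7%) at 44.5 per Mb, and convergent gaps, between gene ends, held 76 (12.5%) at 37.9 per Mb. The order was the same in replicate 1 (58.3, 39.6 and 33.4 per Mb) and in replicate 3 (65.8, 47.1 and 41.3 per Mb). The other 2 summits lay beyond the last coding gene of an arm. Density also differed between arms. It was highest on 3L, with 178 summits at 70.3 per Mb, followed by 2L with 135 at 53.5, 3R with 136 at 44.1, 2R with 89 at 39.9 and X with 66 at 36.4. Arm 3L was the highest in both replicates, at 63.6 per Mb in replicate 1 and 71.8 in replicate 3. The small chromosome 4 held 2, nearest to zfh2 and fuss.

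The members were spread over 419 gaps, of which 296 held 1 member and 123 held more, together 310 members. The gap with the most members was the divergent one of 9.83 kb between CASK, which encodes a synaptic scaffold protein, and Gr93a, a gustatory receptor gene, on 3R. It held 9 members and no summit of another class. Their pooled signal ran from 144.8 to 1246, and 6 of the 9 were also among the equally many strongest peaks of both replicates. The convergent gap on the other side of Gr93a, up to Gr93b, held 5 more with signal from 145.2 to 494.0, so that 14 members lay within 15.6 kb at this receptor cluster. Another summit of the IDR-thresholded list lay within 1000 bp of 178 members (29.4%, interval 25.9% to 33.1%). Among promoter summits this share was 25.2% (23.5% to 26.9%) and among far intergenic ones 25.1% (21.9% to 28.5%), and these intervals overlap. Among summits within a gene it was 24.1% (22.4% to 25.8%), an interval just below that of the members.

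Some members lay at the start of a non-coding gene. A total of 51 (8.42%) lay within 500 bp of the 5' end of a non-coding gene, comprising 37 at genes of class ncRNA, 3 at tRNA genes, 1 at a snoRNA gene and 10 at annotated transposable elements. The called interval of 60 members (9.90%) reached into a gene even though the summit did not. Neither share was computed for all DNA that met the rule or for the other classes. For 598 members the nearest TSS belonged to a gene that flanked the gap, and for 152 (25.1%) the gene with that TSS also had a promoter summit. Counted by genes, 22.9% of all 13945 coding genes had a promoter summit. The first share counts summits, so a gene with several members enters it more than once.

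Signal was on a scale that the authors did not describe. It is used to rank peaks and to describe the classes and the replicates. No source used here states whether the scale is the same in both replicates. Near intergenic summits had a median pooled signal of 259.5 (quartiles 187.7 to 429.6, range 140.0 to 3263). Promoter summits had a median of 285.3 and far intergenic summits 252.1, and the quartile ranges of all 3 classes overlapped almost wholly. In the first 1000 peaks stood 88 of the near intergenic summits (14.5%, interval 11.9% to 17.6%), 19.2% of promoter summits (17.7% to 20.8%) and 10.2% of far intergenic summits (8.10% to 12.7%). In replicate 1 the shares of near intergenic and promoter summits were 16.0% and 17.6%, with overlapping intervals, and in replicate 3 they were 13.3% and 20.3%. Within the class, upstream and downstream members had almost the same median, at 259.4 and 259.9.

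Genes of the Polycomb group flanked the gaps of some of the strongest members. The first, with a pooled signal of 3263, lay in the convergent gap between CG13321 and Psc on 2R, with its nearest coding TSS that of CG13321, and the second, with 3140, lay 4228 bp upstream of Psc. Psc encodes a subunit of the Polycomb repressive complex PRC1. The first ranked 12 in replicate 1 and 8 in replicate 3, and the second ranked 6 and 24, so both were near the top of each replicate. A further PRC1 gene, ph-d, had a member with a signal of 2219.7 at 841 bp upstream, in the gap between ph-d and its paralog ph-p, ranked 55 and 76 in the replicates. The Psc summit was also 145 bp from the 5' end of the non-coding gene lncRNA:CR44339.

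The gene tara (taranis), a transcriptional coregulator, had 4 members upstream, at 1139, 3170, 3492 and 3767 bp. Their pooled signals were 1694.7, 218.2, 2316 and 2628. The summits at 3170, 3492 and 3767 bp shared a single called interval, and the weakest of these had no match in the list of replicate 1. The summit at 3767 bp ranked 17 in replicate 1 and 64 in replicate 3, and that at 3492 bp ranked 14 and 227, so the replicates differed in which of these was stronger. The summit at 1139 bp ranked 145 and 132.

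Other strong members were placed at genes of signalling and patterning. E(spl)m2-BFM, a Bearded family gene of the E(spl) complex that Notch signalling activates, had a summit with signal 2029 at 515 bp upstream, ranked 77 in replicate 1 and 95 in replicate 3. The Wnt receptor gene fz had one of 1616 at 1754 bp upstream, ranked 155 and 169, and the fork head genes bin and slp2 had ones of 1519.7 and 1634, at 1297 and 4320 bp upstream. RasGAP1, whose product turns off Ras, had a signal of 1919 at 634 bp upstream. The mitotic cyclin gene CycB had a member of 2734 downstream of its TSS, ranked 29 and 30, in the gap of 1.34 kb that separates it from blw. All 25 of the strongest members ranked in the first 300 peaks of both replicates. The rest of these 25 were nearest to CG31668 (2896), l(3)neo38 (2724), CG43131 (2283), CG33453 (2139.7 and 1316), CG43245 (2071), DNAlig3 (1891), the rhodopsin gene Rh5 (1761), vers (1685), COX7AL2 (1453), CG43354 (1386), the MAP kinase kinase kinase gene wnd (1344) and CG4218 (1307).

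Several genes had a member on more than 1 site. Of the 446 genes that were nearest to a member, 331 had 1 member, 86 had 2, 19 had 3 and 10 had at least 4. Gr93a had 7, of which 4 lay upstream of its TSS, and CASK, CG13898 and CG43354 had 5 each. Beside tara, 4 members each lay nearest to CG4218, CG43131, Optix (a homeobox gene of eye development), mib1 (a ubiquitin ligase that acts on Notch ligands) and shd (the enzyme that makes the active form of ecdysone). All 4 summits at shd lay upstream, at 538 to 2889 bp, with signals from 279.5 to 817.8, and all 4 were among the strongest peaks of both replicates. At mib1 all 4 lay upstream at 1532 to 4386 bp, with signals from 195.7 to 398.8.

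Genes of developmental regulation were often the nearest to a member. A list was read against 3.2%, the share of all 13945 coding genes that were nearest to a member, and against 7.02%, the share of the 6357 coding genes that had any DNA meeting the rule. The lists hold few genes and no test was run on them. Of 16 BTB transcription factor genes 5 were nearest to a member, and of the 13 of these with DNA that met the rule this was 38.5%. They were ab, lola, chinmo, psq and ttk, with 8 members in all. The list's DNA held 217 summits per Mb, against 49.5 over all DNA that met the rule, and 190.1 and 217 per Mb in replicates 1 and 3. The strongest of these lay 1521 bp upstream of ab, which encodes a BTB factor of dendrite growth, with a signal of 740.8 and ranks of 689 and 932. At lola itself a summit with a signal of 531.1 lay 1402 bp upstream on 2R, ranked 1625 in replicate 1 and 1124 in replicate 3. No source used here states how much of the lola locus the transgene carries.

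The E(spl) complex and Notch pathway list had 5 of 19 genes (26.3%), with 7 members at 243 per Mb (173.9 and 209 in the replicates). They were E(spl)m2-BFM, E(spl)malpha-BFM, E(spl)m3-HLH, the glycosyltransferase gene fng and the ligand gene Ser. The summit of E(spl)malpha-BFM, 1784 bp upstream, had a signal of 895.2 and ranks of 563 and 569, and that of fng, 738 bp upstream, a signal of 569.4. Genes of the Wingless and Hedgehog pathway had 5 of 28, at 139 per Mb, namely fz, fz3, wg, Wnt4 and ptc. At wg, which encodes the Wnt ligand Wingless, the signal was 251.0 at 4258 bp upstream, and at Wnt4 211.8 at 602 bp. The Dpp pathway list, of the fly BMP ligand, had 2 of 18, the inhibitor Dad with a signal of 783.1 and the co-receptor dally with 280.5. Its 3 members lay in only 11.2 kb of DNA meeting the rule, which made 268 per Mb (268 in each replicate). The EGF and FGF receptor pathway list had 4 of 23, led by the Ets family genes aop (992.0) and pnt (381.3) and their regulator edl (653.2). Its density was 129 per Mb (104 and 129 in the replicates).

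Patterning genes were also often nearest to a member, though their DNA was not always dense in summits. Gap and pair-rule genes had 5 of 19 nearest to a member (slp2, slp1, knrl, run and pdm2), but these genes lay in large gaps, and the density was 66.1 per Mb (66.1 and 77.1 in the replicates). The summit downstream of the slp1 TSS had a signal of 1251. Dorsoventral patterning genes had 5 of 22 at 145 per Mb, led by the T-box gene Doc2 (735.0), the zinc finger gene peb (610.5) and the GATA factor gene srp (429.7). The list of Hox cluster genes had 2 of 11, the anterior determinant bcd with 388.3 at 1525 bp upstream and the dorsal gene zen with 243.5. Its density was 60.8 per Mb (60.8 in each replicate), close to the 49.5 of all DNA that met the rule. Other homeobox genes had 5 of 47 (10.6%), yet only 31.0 per Mb, below the density of all DNA that met the rule in the IDR-thresholded list and in both replicates (18.6 and 24.8).

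Genes of axon guidance, for which Lola is known, had 6 of 36 (16.7%) with 10 members, at 145.4 per Mb (101.8 and 159.9 in the replicates). The strongest were comm2, of the commissureless family that controls midline crossing, with a signal of 1247 at 651 bp upstream, Sema5c, a semaphorin gene, with 1035 at 523 bp, and the receptor gene robo2 with 692.5 at 2485 bp. The others were comm, caps and unc-5. Adhesion genes had 4 of 19, comprising ft (988.4), ds (890.1), CadN (242.3) and ed, at 73.7 per Mb (73.7 in each replicate). Proneural, Sox and neuroblast genes had 3 of 26, with D (511.3), Sox21a (293.2) and esg (188.6). Their density was 71.0 per Mb (56.8 and 71.0 in the replicates), not far above the 49.5 of all DNA that met the rule. Muscle genes had 3 of 24 with kon (418.2), Act87E (332.9) and how (160.8), at 92.2 per Mb (92.2 in each replicate). Ecdysone response genes had 3 of 22 with Blimp-1 (388.3), Eip75B (321.0) and Hr38 (240.6), at 114.5 per Mb (57.2 in each replicate). Cell death regulators had 2 of 13 with rpr (541.6) and grim (145.3), at 117 per Mb (78.1 and 117 in the replicates). The Hr38 and grim summits had no match in the list of replicate 1 and ranked 7672 and 5488 in replicate 3. The Polycomb list had 2 of 17, at Psc and ph-d. Its 3 members lay in only 11.0 kb of DNA meeting the rule, which made 273 per Mb (273 and 182 in the replicates).

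Housekeeping and terminal gene families ranged from no member to shares near those of all coding genes. Cytosolic ribosomal protein genes had 1 of 92, at RpS23 with a signal of 221.2, and mitochondrial ribosomal protein genes 1 of 73, at mRpL21 with 182.5. The second list had only 7.47 kb of DNA meeting the rule, so its 1 member made 133.8 per Mb and 5.88% of its genes with such DNA, and no near intergenic summit of replicate 1 was nearest to one of its genes. The ribosomal protein lists had promoter summits at 65.2% and 47.9% of their genes, against 22.9% of all coding genes. Proteasome genes (0 of 48), Trithorax and remodeller genes (0 of 16), insulator and interband protein genes (0 of 11), heat shock genes (0 of 18) and germ plasm genes (0 of 18) had no member, although 1 near intergenic summit of replicate 1 lay at a heat shock gene. Only 15, 4, 2, 10 and 6 of these genes, in that order, had any DNA meeting the rule, so a member could fall near few of them. Cuticle protein genes had 3 of 119, led by Cpr100A (372.0), Cpr65Az (342.8) and Cpr67Fb (245.5), cytochrome P450 genes 1 of 85 at Cyp6v1 (444.9), and Dpr, DIP, Beat and Side genes 2 of 54 (3.70%) with side-IV (423.1) and dpr20 (210.6). Odorant, gustatory and ionotropic receptor genes had 6 of 179 (3.35%) with 15 members, 7 of them at Gr93a, and their density of 50.02 per Mb was close to that of all DNA that met the rule. Gr93d (661.6) and Gr89a (325.8) were next.

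**Figure D2:**
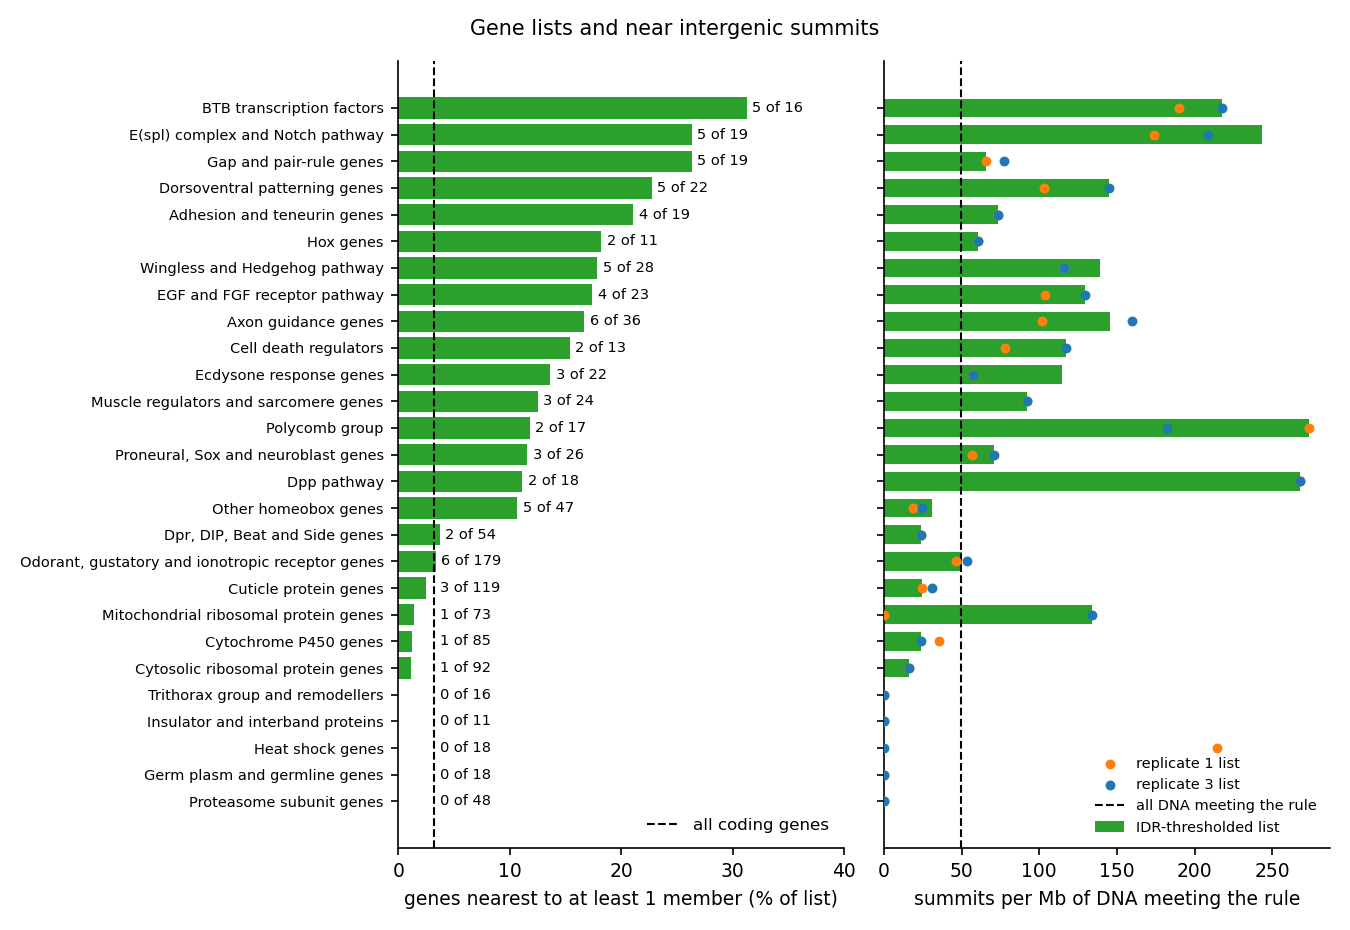
Left, share of the genes in each list that were nearest to at least 1 near intergenic summit (x axis, %), with counts beside the bars. Right, summits per Mb of DNA meeting the rule that lay nearest to the list's genes, as bars for the IDR-thresholded list and points for each replicate (the points overlie each other where the replicates were equal). Dashed lines mark 3.2% of all coding genes and 49.5 per Mb. BTB factor genes stand at 5 of 16 and Proteasome genes at 0 of 48.

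The replicates shared most members. A summit within 100 bp stood among the equally many strongest peaks for 484 members in replicate 1 (79.9%), for 525 in replicate 3 (86.6%) and for 426 in both (70.3%, interval 66.5% to 73.8%). Of the remainder 23 (3.80%) were in neither. The share found in both was 73.0% for promoter summits (71.2% to 74.7%) and 68.8% for far intergenic ones (65.2% to 72.3%), with overlapping intervals. Across the 554 members with a match in both full lists of 30000 peaks, Spearman's rho of the signals was 0.74 and Pearson's r of their log2 values was 0.79. These describe peaks selected on the pooled signal of the same libraries. Of the 554, 212 (38.3%) ranked better in replicate 1, compared with 49.3% of promoter summits, 41.1% of summits within a gene and 28.9% of far intergenic ones. What made the replicates differ in this was not tested.

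Some members were carried by 1 replicate. The largest rank difference was at a summit 2770 bp upstream of CG12123, which ranked 16470 in replicate 1 with a signal of 34.2 and 747 in replicate 3 with 388.0. A summit near CG5953 went the same way, with ranks of 23115 and 2964. Summits near zfh2 (203 and 2048) and Chsy (2752 and 26688) went the other way, as did the summit 3492 bp upstream of tara described above. All 5 still passed the IDR threshold, which the pooled signal set.

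**Figure D3:**
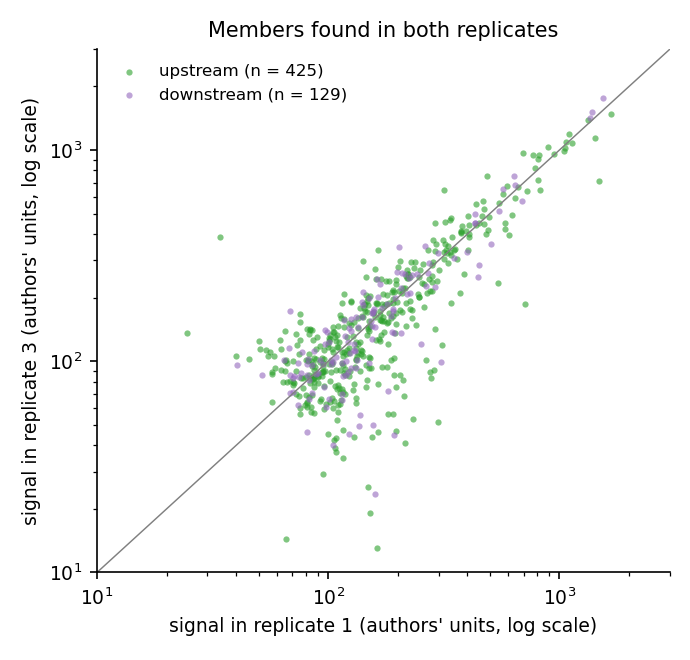
Signal of each near intergenic summit in replicate 1 (x axis) and replicate 3 (y axis), both in the authors' units on log scales, for the 554 found in both full lists, with green points upstream and purple points downstream of the nearest coding TSS. The grey line marks equality. Most points of high signal lie close to the line, with the tara summit at 1489 in replicate 1 and 716 in replicate 3 as an exception, and the scatter is wider at low signal.

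The A/T content peaked at the summits of this class and of the others. Over 50 bp to each side of the summit the A/T content was 70.4% ± 8.15 (SD over 606 summits), ranging from 42.6% to 87.1%, against 59.6% ± 9.75 over all 121270 windows of that length in DNA that met the rule. Replicate 1 gave 69.3% and replicate 3 70.9%. Far intergenic summits had 70.8%, promoter summits 69.8% and summits within a gene 69.4%. The means of the replicates for near intergenic summits lay further apart than the means of the 4 classes. The content was highest at the summit, at 70.8% in the 20 bp to its left. It had dropped to 61.3% at 100 to 120 bp from the summit and to 54.1% at 280 to 300 bp on the left, and to 60.5% and 54.7% on the right, before it rose back to the level of all DNA that met the rule. The core was thus flanked by DNA poorer in A and T than its surroundings. Bases printed in lower case by the reference, which marks repeats and low-complexity sequence, made up 27.1% of the member windows and 18.0% of the DNA that met the rule.

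**Figure D4:**
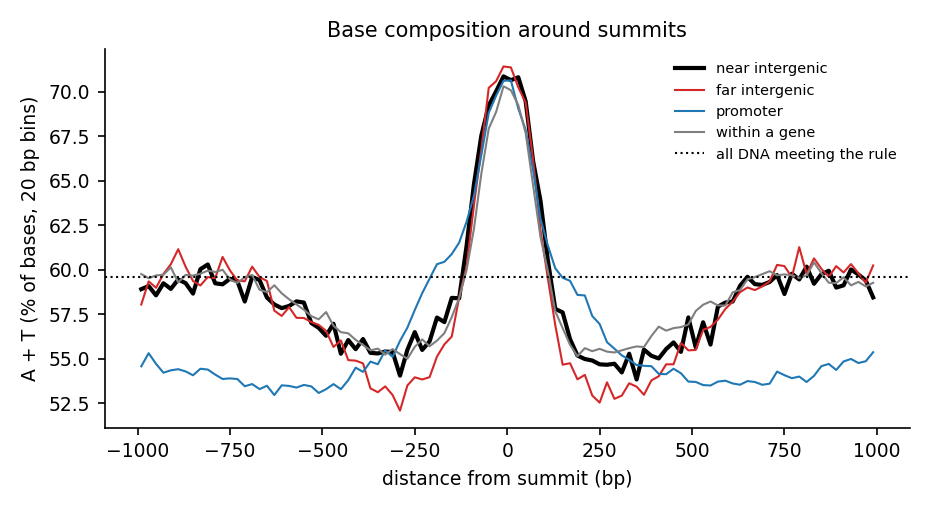
A + T content in bins of 20 bp (y axis, % of bases) against the distance from the summit in bp (x axis) for the 4 classes of the IDR-thresholded list, with the mean over all DNA that met the rule, 59.6%, as a dotted line. All 4 lines peak near 70% at the summit, and then dip below the dotted line on both sides, to 54.1% in near intergenic summits at 280 to 300 bp on the left.

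Known binding words of chromatin and patterning factors were in part at, in part above and in part below their level in the surrounding DNA. Each was searched on both strands within 100 bp to each side of the members, and in 60916 windows of that length whose centre met the rule. The GAGA factor word GAGAG was held by 18.2% of members and 19.3% of rule windows, and the BEAF-32 core CGATA by 17.8% and 19.0%, and both intervals span the second value. Within 50 bp to each side, GAGAG was less frequent, in 7.10% (5.31% to 9.42%) against 10.1% of rule windows of that length, and the intervals of both replicates also lay below. The Zelda word CAGGTA was in 5.61% and 3.97%, with an interval of 4.04% to 7.74% for members. In replicates 1 and 3 the CAGGTA share was also higher, at 5.32% and 5.34%. The intervals there began at 3.73% and 3.84%, so both spanned the rule windows. The Su(H) core TGGGAA was in 11.2% (8.95% to 13.98%) and 13.3%. Within 50 bp it was in 4.13% (2.81% to 6.02%) and 6.81%, an interval wholly below. The TGGGAA interval of replicate 3 (3.06% to 6.28%) also lay below, while that of replicate 1 (3.73% to 7.54%) spanned the rule windows.

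Words that mark promoters were rarer than at promoter summits. The DRE word TATCGATA was in 4 of the 606 windows (0.66%), against 6.43% of promoter summits and 0.36% of rule windows. The member interval for it (0.26% to 1.68%) spans the rule windows. In replicate 1 the DRE word was in 0 of the 545 near intergenic windows. CGATA is contained in TATCGATA. The M1BP core GGTCACA was in 1 member window (0.17%), against 4.86% of promoter summits and 1.24% of rule windows. A/T-rich words were more frequent, with TAATTA, a homeodomain site, in 22.9% of members and 16.0% of rule windows, the GATA site TGATAA in 18.6% and 12.9%, and runs of AAAAAA in 48.5% and 35.7%. The Pho core GCCAT was less frequent, in 21.3% and 37.2%, as was the repeat CACACA, in 11.4% and 17.0%, although in replicate 1 the interval of CACACA (11.3% to 17.1%) spanned the rule windows. The A/T content of the windows differs as well, and its part in these differences was not tested.

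Overlapping words around TACACT led the 6-mers. Of the 512 6-mers held by at least 10% of member windows, AGTGTA had the largest ratio of its share in members to its share in rule windows, at 2.78. It reads TACACT on the other strand. The next largest ratio was 2.60, for CTACAC, and the third was 2.52, for GTACAC. They were followed by ACACTG with a ratio of 2.44 and by ATATTA with 2.35. TACACT and ACACTG overlap in the longer word TACACTGA. AGTGTA was in 21.1% of member windows (109 of 545 in replicate 1 and 142 of 637 in replicate 3), 23.6% of far intergenic, 11.6% of promoter and 7.59% of rule windows. ATATTA holds only A and T, and the others also hold G or C.

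The longer ACACTGA was in 58 member windows (9.57%, interval 7.48% to 12.2%), 4.42 times its share in rule windows (2.16%). Within 50 bp to each side of the summit the ratio was 2.65, and that of AGTGTA was 1.52. It was in 8.99% and 9.11% of the windows of replicates 1 and 3. Far intergenic summits held it in 7.90%, summits within a gene in 6.66% and promoter summits in 3.62%, so the word was not confined to this class. TACACTGA, extended by 1 base, was in 5.61% of member windows and 0.63% of rule windows, and the shifted word CACTGAG was in 8.25% and 1.96%. Both were chosen after their values were seen. Without lower-case bases the ratio for ACACTGA was 3.49 and that for AGTGTA 2.40. Signal did not order it: in windows of 401 bp the word was held by 37 of the 202 strongest members, 31 of the next 202 and 42 of the 202 weakest.

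The matches of ACACTGA spread over a broad zone around the summit and were most frequent at 50 to 150 bp from it. Around the 606 members there were 0.28 matches per kb within 50 bp, 0.76 at 50 to 100 bp, 0.59 at 100 to 150 bp and 0.31 at 150 to 200 bp, and beyond 250 bp the value was near the 0.11 per kb of all DNA that met the rule. AGTGTA had the same course, with 0.62, 1.86 and 1.20 matches per kb in the first 3 bins and 0.41 per kb in all rule DNA. The A/T content falls over the same distances.

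The matches faced the summit. Within 200 bp, 95 of 117 had the 3' end of ACACTGA toward the summit (81.2%, interval 73.2% to 87.2%), and at 50 to 100 bp 44 did and 3 did not. Between 200 and 1000 bp the split was 63 against 47 (57.3%, 47.9% to 66.1%), with 64.0% (54.2% to 72.7%) toward the summit in replicate 1 and 57.6% (48.6% to 66.2%) in replicate 3. Within 200 bp, replicate 1 gave 80.9% (76 of 94) and replicate 3 87.3% (110 of 126). With lower-case bases left out it was 74.6% (53 of 71), and with 1 summit kept per 500 bp, the strongest, 83.0%. Far intergenic summits had 92.3% toward the summit and summits within a gene 84.9%, while promoter summits had 60.0% (53.3% to 66.4%), below the interval of the near intergenic members. Matches on both sides within 200 bp were present at 8 members, and at 6 of these every match faced inward.

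The bases after the word were also uneven. Over the 118 matches within 200 bp of a member's summit, the base before ACACTGA was T in 51.7%. The next base after it was G in 44.9% and A in 41.5%, and the fifth and the sixth bases after it were A in 78.8% and 71.2%. At ft, printed above, the 6 bases after the match are all A or G. The same counts were not made for matches in all DNA that met the rule or in the other classes. Whether these neighbouring bases are particular to the members is therefore unknown. TACACT led the 6-mers of these same windows, so the T before the word is not a separate observation.

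**Figure D5:**
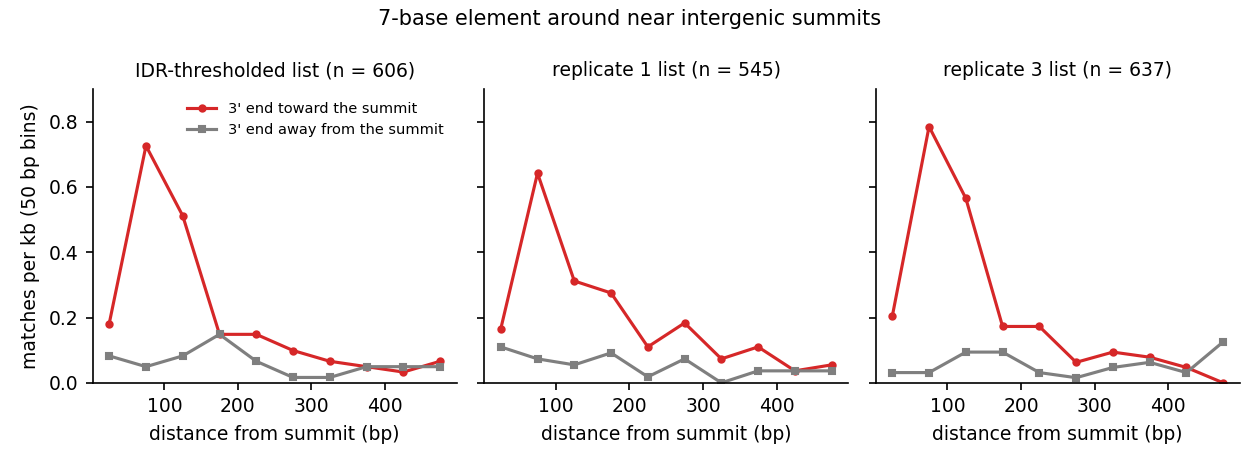
Matches of the 7-base word per kb of DNA (y axis, 50 bp bins) against distance from the summit in bp (x axis), in red for those whose 3' end faced the summit and grey for those facing away, around near intergenic summits of the IDR-thresholded list and of each replicate's list. In each list the red line rises at 50 to 100 bp, to 0.73 per kb in the IDR-thresholded list where the grey line is at 0.05.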

How the data were processed

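ChIP-seq peak lists on dm6 were used as deposited. Per the submitters' file records, 1 list was called from each replicate with a control alignment, 1 from both replicates pooled, and 1 by IDR thresholding. The sources used here name no aligner or peak caller, and read depth is unknown. Each peak carried a signal score deposited by the authors, of undescribed scale, a deposited −log10 q value from the authors' caller (4.33 for all 606 members, so it ranked nothing), and a deposited summit offset in bp. The IDR-thresholded peaks were exactly the equally many of highest signal in the pooled list, so the threshold was a cut on pooled signal. For 1 member the summit lay past the interval's end and was kept. Genes and TSSs came from Ensembl release 115 (13945 coding genes among 23973 of all types, transposable elements included) and sequence from the NCBI copy of the assembly. Rule windows were non-overlapping windows of equal length whose centre met the rule. Every base that met the rule was counted for densities, and each base or summit was given to the nearest coding TSS. Named genes were those nearest to the 25 strongest members or to at least 4 members, up to 3 per gene list, those at the bounds, and those at the 5 largest rank differences between replicates. The other members of short gene lists, and lsn and fuss, were chosen after their values were seen. Members, the 27 gene lists and the words were chosen with earlier results of these data known, and 7 list symbols were not matched and not used. Python 3.11.15, pandas 2.3.3, numpy 2.4.6 and scipy 1.17.1 were used. Classes, gaps, word counts and word orientation were tested on simulated data with known answers.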

Additional observations from a re-analysis of the deposited data

How the results depend on the processing

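No paired analysis was possible because the 2 replicates form 1 group and no test was run. Taking 1 replicate's list in place of the IDR-thresholded one gave 545 to 637 members, 44.5 to 52.0 per Mb, an upstream share of 76.0% to 76.9% and a median signal of 131.5 to 143.8, on each replicate's own scale. The upstream share was 83.8% with a lower bound of 250 bp, 73.7% with 1000 bp and 79.5% with 1 TSS per gene. It was 67.0% when TSSs of all gene types counted, and the upstream share of DNA under that setting was not computed. The share in tandem gaps stayed between 45.6% (1000 bp) and 48.6% (250 bp), with 47.7% when coding genes alone were excluded and 47.9% with TSSs of all types. Density was 62.0 per Mb with the bound of 250 bp. The stronger peaks of the list, up to its median rank, held 295 members at 24.1 per Mb, 77.6% upstream, and 233 nearest genes, and both flanking genes together made 759 genes. The share found in both replicates was 56.8% at a matching distance of 50 bp, 36.5% when the replicates' lists were cut to the same length as those stronger peaks, and 91.4% in the full lists. The A/T content was 68.3% over 100 bp to each side. Of the 11 known words, 4 had an interval wholly above the rule windows, against 3 in each replicate and 3 in the shorter window. Leaving out lower-case bases and changing the reach of the facing count were chosen after seeing the data. The facing share then ran from 74.6% to 87.3%. Read depth is unknown, so peaks below the called lists cannot be judged, and summit positions carry a median offset of 16 to 20 bp between lists.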
